A study of Mus musculus with 47 samples.

Results

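The 7 genes described here, Sp8, Tlx2, Pitx1, Zfp703, Rftn1, Nsg1 and Susd3, were chosen by their higher RNA level within 12 hours of auxin in SUZ12-AID or MTF2-AID mouse embryonic stem cells (ESC), out of 35856 gene symbols measured. They were followed across all 16 groups of the study. Polyadenylated RNA was sequenced from 47 libraries of 4 C57BL/6 lines that all expressed Tir1, the plant receptor through which auxin marks degron-tagged proteins for destruction. The untagged line served as the reference. In SUZ12-AID, MTF2-AID and AID-JARID2 cells the named protein bears the AID tag, a degron that responds to auxin. ESC were kept in LIF, CHIR99021 and PD0325901, and each line was collected untreated and after 12 hours of 50 µM auxin. Neural progenitor cultures (NPC) were made from each line with bFGF for 72 hours and then the Hedgehog agonist SAG for 48 hours, untreated or with auxin over all 5 days. Each group had 3 biological replicates, except SUZ12-AID NPC with auxin, which had 2. The labels do not say how many clones stand behind a line, so tag and clone cannot be told apart in comparisons between lines, and all lines share Tir1.

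PRC2 is the Polycomb complex that methylates lysine 27 of histone H3 and keeps many developmental genes silent in stem cells. SUZ12 is a core subunit that every form of the complex needs, MTF2 belongs to the Polycomb-like form PRC2.1, and JARID2 to the form PRC2.2. Of the 7 genes, Sp8, Tlx2, Pitx1 and Zfp703 encode nuclear regulators. Sp8 is a zinc finger factor of limb outgrowth and of the forebrain, Tlx2 a homeobox factor of enteric neurons, Pitx1 a homeobox factor of the hindlimb and pituitary, and Zfp703 a zinc finger co-repressor. Rftn1 encodes raftlin, a lipid raft protein of the cell membrane, Nsg1 a vesicle protein that sorts receptors in neurons, and Susd3 a membrane protein with a sushi domain.

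The genes lie on 6 chromosomes of GRCm38 (mm10). Sp8 is at chr12:118846329-118852576 on the plus strand, Tlx2 at chr6:83068324-83070293 on the minus strand and Zfp703 at chr8:26977325-26981461 on the plus strand. Pitx1 (chr13:55825051-55836192) and Susd3 (chr13:49230690-49248706) share a chromosome and the minus strand, where Rftn1 (chr17:49992257-50190674) and Nsg1 (chr5:38137192-38159907) also lie on their own chromosomes. PRC2 in vertebrates is known for occupying promoters rich in unmethylated CG dinucleotides, so the CG content of the start sites was read from RefSeq promoter windows of GRCm38.p6, each running from 250 bases before to 50 bases after an annotated start. Windows were found for 3 of the 7 genes: 3 starts of Sp8, and 1 each of Rftn1 and Susd3. Over all 32851 windows of the table the median was 7 CG. Sp8, the only gene with several windows, spanned 2 CG at its first start to 32 CG at its second, and the third start held 10 CG. A count of 32 CG or more was found in 9.52% of all windows, and 2 or more in 85.9%. Rftn1 had 30 CG, reached by 11.7% of windows, and Susd3 had 10 CG, reached by 43.5%, the same count as at the third start of Sp8. The 250 bases before the first and the second start of Sp8 are printed 5′ to 3′, with each CG in capitals, because they differ widely inside a single gene. These stretches hold 1 and 32 CG, and the 50 bases after each start, which the window counts include, are not printed. The first is at chr12:118846079-118846328 and the second at chr12:118846983-118847232, inside the annotated gene, in an intron of its longer transcript, both on the plus strand. The letters say nothing of which start was used in these cells, since the values are per gene.
Sp8 first start: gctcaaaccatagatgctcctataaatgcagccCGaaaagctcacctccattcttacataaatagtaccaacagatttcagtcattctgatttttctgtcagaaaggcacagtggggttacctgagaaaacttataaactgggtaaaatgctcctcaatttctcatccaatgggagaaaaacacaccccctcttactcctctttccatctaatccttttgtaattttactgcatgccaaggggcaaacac
Sp8 second start: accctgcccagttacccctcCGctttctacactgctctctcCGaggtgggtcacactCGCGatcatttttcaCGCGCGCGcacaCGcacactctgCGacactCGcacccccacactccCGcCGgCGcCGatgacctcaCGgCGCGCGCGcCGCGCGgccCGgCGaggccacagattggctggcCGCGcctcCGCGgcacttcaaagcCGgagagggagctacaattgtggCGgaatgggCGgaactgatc

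Levels are transcripts per 1000000 (TPM), which are scaled by gene length and so can be set side by side between genes. Whole reads could be recovered from the steps of the TPM values, and the libraries held 3.24 to 8.71 M reads (M stands for 1000000; median 5.39 M). At this depth several of the genes rest on few reads: in ESC, Susd3 had 1 to 12 reads in a library, Nsg1 3 to 18 and Pitx1 4 to 22, and intervals on reads given here cover counting error only. The labelled stages were checked against markers. The summed TPM of 8 naive pluripotency genes was 3648 to 3693 in untreated untagged ESC and 35.8 to 42.6 in untreated untagged NPC. The sum of 7 neural progenitor genes was 318 to 344 in those ESC, with Fabp7 at 0 in every library, and 4126 to 4194 in those NPC. Titles of the MTF2-AID and AID-JARID2 NPC name day 0 while their other labels give NPC and 5 days, and their untreated neural progenitor sums, 4184 to 4414 and 3707 to 3869, were near the untagged NPC. The degron acts on protein, and RNA of Suz12, Mtf2 and Jarid2 was not called different with auxin in any ESC line. Changes are given as limma log2 differences of TPM + 0.5 with their standard error (SE), a scale that understates changes near 0. Genes under an adjusted p of 0.05 count as called, with the Benjamini-Hochberg adjustment made over all genes tested (15104 in ESC, 16469 in NPC), and every adjusted p given is limma's, two-sided. All 7 genes passed the filter of at least 1 TPM in 2 libraries in both stages, Tlx2 in NPC through 4 libraries, of which 2 were the SUZ12-AID NPC with auxin.

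Differentiation of the untagged line without auxin split the 7 genes. Nsg1, Zfp703 and Sp8 rose steeply, Tlx2 and Pitx1 fell, Rftn1 rose a little and Susd3 was not called. Nsg1 was at 1.15, 1.64 and 1.13 TPM in untreated ESC and at 120, 125 and 112 TPM in NPC, a difference of 6.06 ± 0.20 (adjusted p = 1.42e-25), and no ESC library came near any NPC library. Zfp703 was at 3.11, 2.58 and 3.3 TPM in ESC and 133, 119 and 106 TPM in NPC (5.10 ± 0.12, adjusted p = 1.91e-30). Sp8 went from 0.925, 0.584 and 1.08 TPM to 7.55, 9.14 and 7.71 TPM (2.67 ± 0.18, adjusted p = 6.08e-16). All 3 are thus genes of which these NPC cultures hold several times the ESC level. Tlx2 went the other way, from 4.78, 8.21 and 9.64 TPM to 0.452, 0.522 and 0 TPM (-3.30 ± 0.34, adjusted p = 4.08e-11), that is to 2, 2 and 0 reads. Pitx1 fell from 1.45, 2.44 and 1.73 TPM to 0.243, 0.14 and 0.147 TPM (-1.79 ± 0.24, adjusted p = 2.81e-08). Rftn1 rose from 3.05 ± 0.169 to 4.54 ± 0.565 TPM (SD, n = 3; 0.50 ± 0.14, adjusted p = 0.00154). Susd3 was at 1.18 ± 0.441 and 1.23 ± 0.419 TPM (0.05 ± 0.26, adjusted p = 0.879), with overlapping libraries. In this comparison 47.6% of the 17760 genes tested were called higher and 28.5% lower, and the median gene moved by 0.28. The call of Rftn1 was lost with median-of-ratios scaling or voom on the recovered reads, where it was 0.21 at the lowest.

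**Figure D1:**
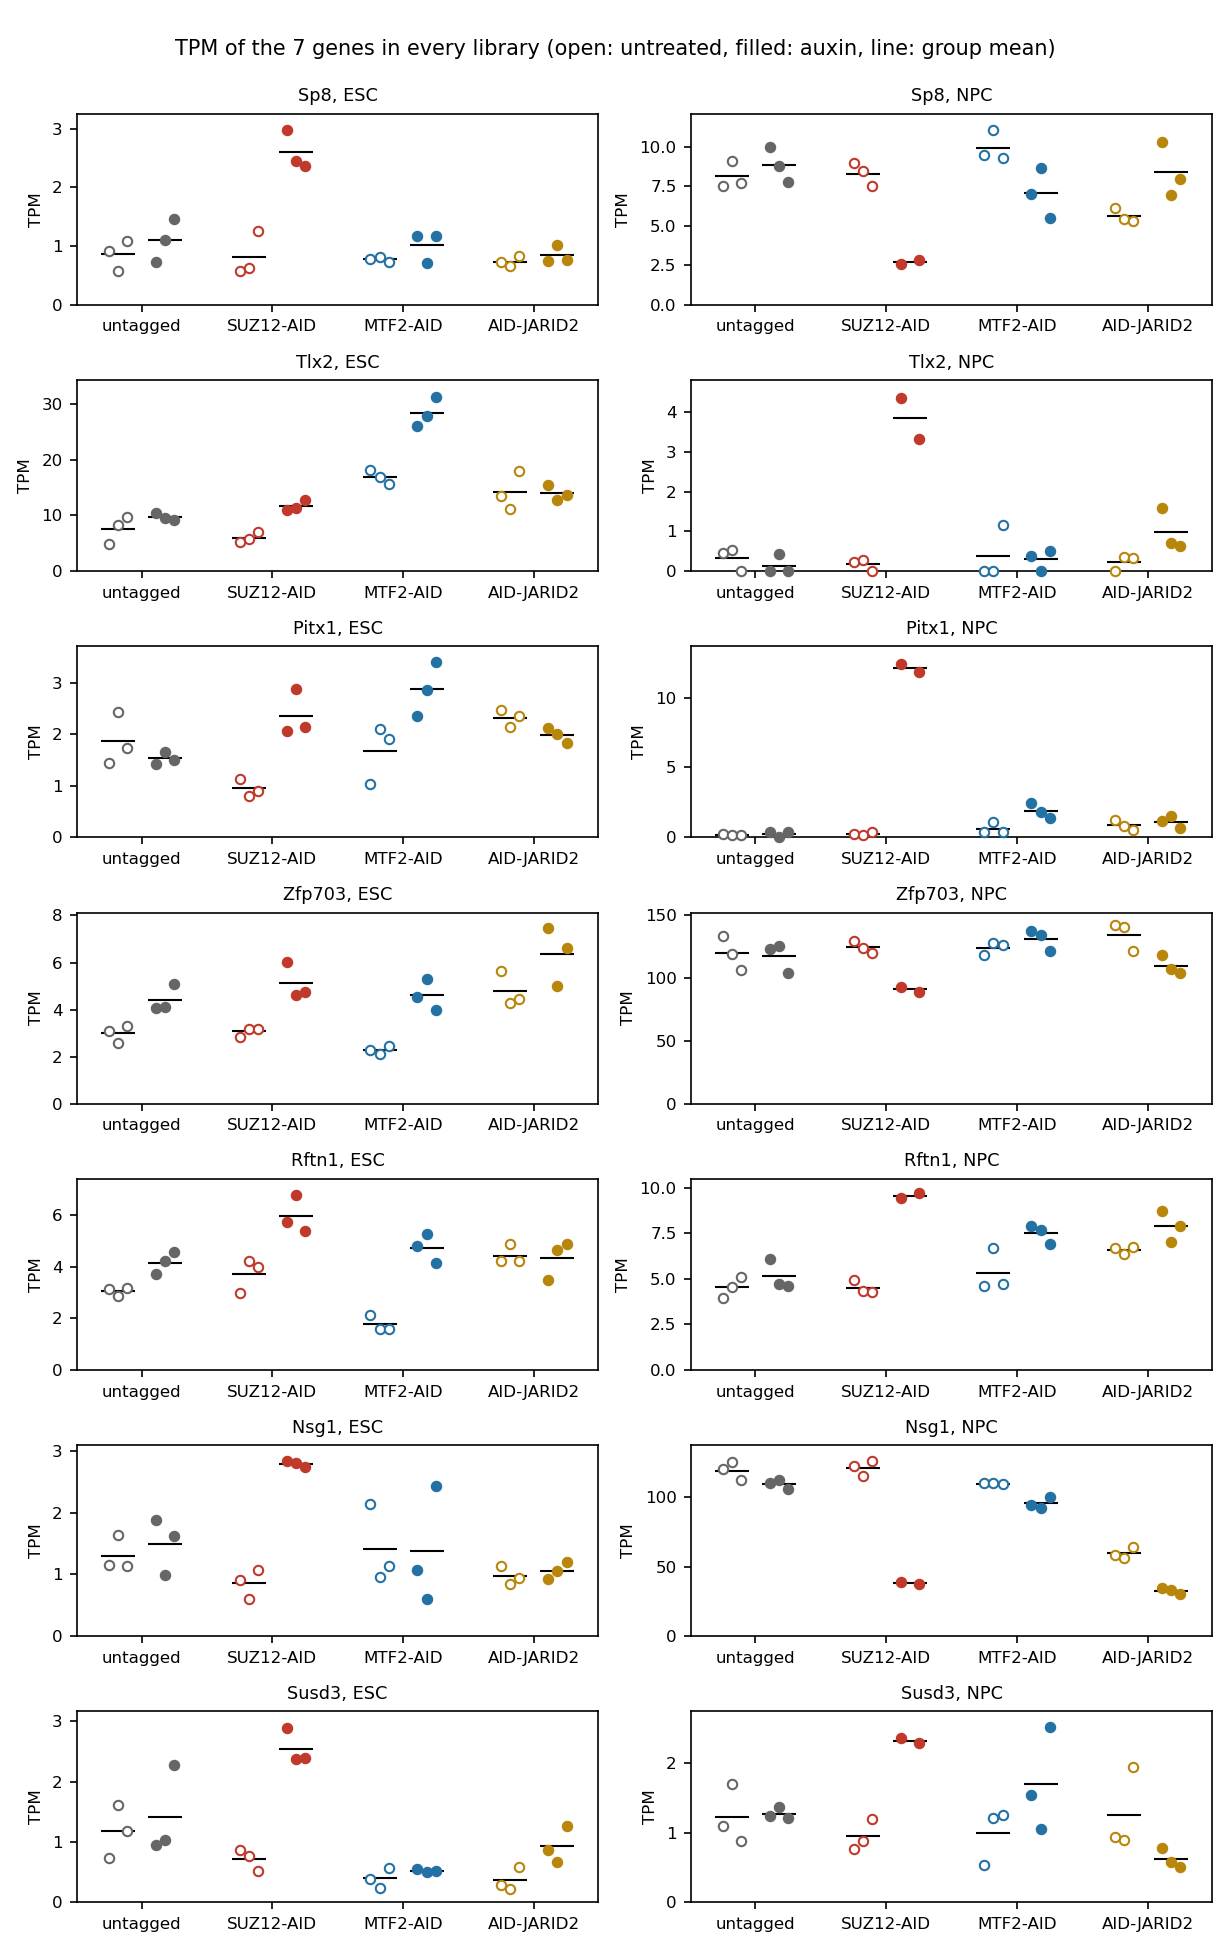
Each panel plots the TPM of a gene in every ESC or NPC library, with the lines along the x axis, open points untreated, filled points with auxin and a bar at the group mean. In ESC the 3 SUZ12-AID libraries with auxin lie above their untreated libraries for all 7 genes, while in NPC Sp8, Zfp703 and Nsg1 lie below and Tlx2, Pitx1, Rftn1 and Susd3 above.

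After 12 hours of auxin in SUZ12-AID ESC all 7 genes were higher in every treated library than in any untreated one. These values chose the genes and are a description only. Sp8 was at 0.583, 0.623 and 1.26 TPM untreated and 2.98, 2.45 and 2.37 TPM with auxin (16, 16 and 29 against 49, 49 and 43 reads). Nsg1 was at 0.908, 0.606 and 1.08 TPM and then 2.84, 2.8 and 2.74 TPM, on 5 to 8 and 15 to 18 reads. Susd3 was at 0.862, 0.767 and 0.513 TPM and then 2.88, 2.37 and 2.39 TPM, on 3 to 6 and 11 to 12 reads. These 3 genes had the larger differences, 1.26 ± 0.24 for Sp8, 1.29 ± 0.29 for Nsg1 and 1.33 ± 0.28 for Susd3. Pitx1 was at 1.14, 0.812 and 0.906 TPM and then 2.06, 2.87 and 2.15 TPM (0.97 ± 0.20). Tlx2 was at 5.3, 5.85 and 6.94 TPM and then 10.9, 11.4 and 12.8 TPM (0.91 ± 0.18). Even after auxin, Tlx2 was the only 1 of the 7 genes above 7 TPM. Zfp703 went from 2.84, 3.19 and 3.19 TPM to 6.02, 4.63 and 4.75 TPM (0.65 ± 0.15), and Rftn1 from 2.97, 4.22 and 4 TPM to 5.72, 6.79 and 5.38 TPM (0.62 ± 0.15). Past the threshold were 7 of 7 genes, beside 5.89% of all genes tested called higher, and nothing is read from that since the rule used this contrast. With 1 library left out, 5 to 7 were past it, with 5 without untreated replicate 1 or without auxin replicate 1.

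The untagged line under the same auxin shows what the agent and the culture gave without a degron. None of the 7 genes was called there by limma (lowest adjusted p = 0.364), where 0.212% of genes were called in either direction. At an unadjusted p under 0.05 there were 3 of the 7 genes and 1143 of all genes, and voom called 0 and 57. Zfp703 was at 3.11, 2.58 and 3.3 TPM untreated and 4.06, 4.13 and 5.08 TPM with auxin (0.49 ± 0.15), and Rftn1 at 3.12, 2.85 and 3.16 TPM and then 3.71, 4.22 and 4.55 TPM (0.39 ± 0.15, adjusted p = 0.517). For both, the libraries did not overlap in the untagged line either. The SUZ12-AID difference beyond the untagged one was 0.16 ± 0.22 for Zfp703 and 0.23 ± 0.21 for Rftn1, close to their SE. For Pitx1 it was 1.18 ± 0.29, for Susd3 1.16 ± 0.39, for Nsg1 1.16 ± 0.41, for Sp8 1.04 ± 0.34 and for Tlx2 0.51 ± 0.25. By limma 0 of the 7 differences beyond the untagged line passed the threshold, beside 0.179% of all genes called higher. At an unadjusted p under 0.05 there were 4, beside 1657 of all genes, and voom called 0, beside 185. These counts describe the 7 genes and are no test, since SUZ12-AID ESC with auxin chose them.

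With auxin in MTF2-AID ESC the pattern was another, again as a description. Rftn1 showed the largest difference, from 2.14, 1.57 and 1.59 TPM to 4.78, 5.25 and 4.13 TPM (1.21 ± 0.15). Its untreated libraries were below those of the untagged line, at 2.85 to 3.16 TPM. Zfp703 went from 2.28, 2.09 and 2.47 TPM to 4.54, 5.29 and 3.98 TPM (0.87 ± 0.15). Tlx2, highest in this line of all, went from 18.2, 16.9 and 15.6 TPM to 26.0, 27.8 and 31.3 TPM (0.73 ± 0.18). Pitx1 was at 1.03, 2.11 and 1.91 TPM and 2.36, 2.86 and 3.4 TPM (0.65 ± 0.20), also without overlap. Sp8 (0.24 ± 0.24), Susd3 (0.20 ± 0.28) and Nsg1 (-0.11 ± 0.29) overlapped between the groups, and Nsg1 varied from 0.603 to 2.44 TPM among the treated libraries. Past the threshold were Rftn1, Zfp703 and Tlx2, beside 0.629% of all genes called higher, and nothing is read from that since the rule used this contrast. Beyond the untagged line the difference was 0.81 ± 0.21 for Rftn1, 0.86 ± 0.29 for Pitx1, 0.38 ± 0.22 for Zfp703 and 0.33 ± 0.25 for Tlx2, and between -0.24 and 0.03 for Nsg1, Sp8 and Susd3. None of the 7 passed limma's threshold beyond the untagged line, beside 0.00662% of all genes called higher. At an unadjusted p under 0.05 there were 2, beside 885 of all genes, and voom called 0 of the 7 and 0 of all genes. These counts too are a description.

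Auxin in AID-JARID2 ESC was not used in the choice. limma called 0 of the 7 genes (lowest adjusted p = 0.4), beside 0.298% of all genes. At an unadjusted p under 0.05 there were 2 of the 7 genes and 1402 of all genes, and voom called 0 and 46. Susd3 was at 0.286, 0.216 and 0.593 TPM untreated and 0.875, 0.672 and 1.26 TPM with auxin (0.74 ± 0.28, adjusted p = 0.4), on 1 to 2 against 2 to 5 reads. Tlx2 was at 13.4, 11.2 and 17.9 TPM and then 15.4, 12.8 and 13.7 TPM (0.01 ± 0.18), so its groups overlapped. Zfp703 was at 5.66, 4.27 and 4.43 TPM and then 7.47, 5.02 and 6.61 TPM (0.37 ± 0.15, adjusted p = 0.462). Of the difference from the untagged line, none of the 7 genes was called (log2 from -0.43 to 0.57), nor was any gene of the table (0%), with 0 of the 7 genes and 749 of all genes at an unadjusted p under 0.05 and 0 called by voom.

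**Figure D2:**
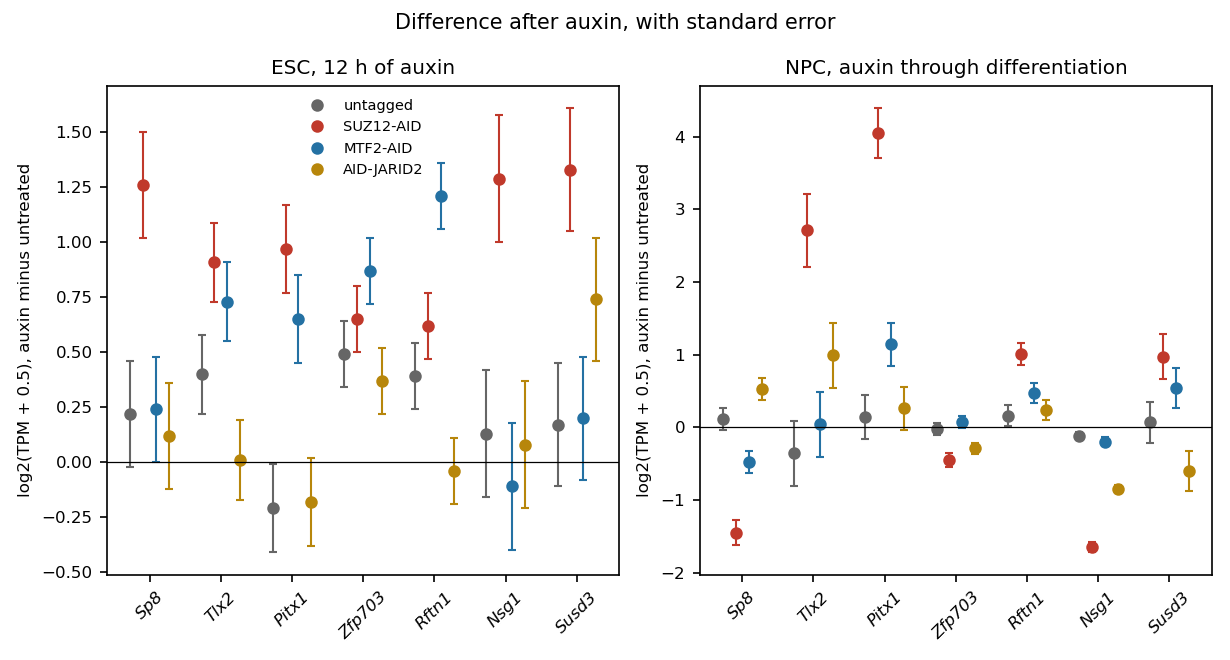
The points are log2 differences of TPM + 0.5 between auxin and untreated libraries for each gene (x axis) and line (colour), in ESC on the left and NPC on the right, and the bars are SE. The SUZ12-AID points are all above 0 in ESC, from 0.62 to 1.33, and span -1.65 to 4.05 in NPC, where the y axis is wider.

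The NPC libraries were not used in the choice. In SUZ12-AID NPC grown with auxin the 7 genes, which had all been higher in SUZ12-AID ESC with auxin, went in opposite directions: Pitx1, Tlx2, Rftn1 and Susd3 rose, and Nsg1, Sp8 and Zfp703 fell. All 7 were called. Over all genes tested 23.9% were called higher and 33.0% lower, so the count of 7 is read against a background in which most genes were called. For these 7 genes no treated library overlapped an untreated one. The share of all genes without overlap is not given here, so nothing is read from that.

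Pitx1 showed the largest change. It was at 0.254, 0.146 and 0.395 TPM untreated and 12.4 and 11.8 TPM with auxin (4.05 ± 0.34, adjusted p = 1.52e-09), on 2, 1 and 3 against 79 and 86 reads. The mean levels differed 45.6-fold, and the summed reads per 1000000 49.6-fold, with an exact 95% interval of 22.3 to 137. That level of 12.1 ± 0.385 TPM (SD, n = 2) was also 12.7-fold that of untreated SUZ12-AID ESC. Tlx2 was at 0.236, 0.271 and 0 TPM untreated and 4.36 and 3.32 TPM with auxin (2.71 ± 0.50, adjusted p = 0.0001). Its 28 reads with auxin against 2 untreated give a ratio per 1000000 reads of 25.3, with an exact 95% interval of 6.37 to 219. Unlike Pitx1, Tlx2 stayed below its untreated ESC level, at 0.636-fold of it. Rftn1 rose from 4.93, 4.35 and 4.29 TPM to 9.43 and 9.71 TPM (1.01 ± 0.15, adjusted p = 9.79e-06), which is 2.11-fold. Susd3 rose from 0.767, 0.882 and 1.19 TPM to 2.36 and 2.28 TPM (0.97 ± 0.31, adjusted p = 0.0114), on 14 reads untreated and 21 with auxin. Its ratio per 1000000 reads was 2.71, with an exact 95% interval of 1.31 to 5.76, and its call was lost without either auxin library (highest adjusted p = 0.0651).

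The genes that fell were those that differentiation raised most. Nsg1 was at 122, 115 and 126 TPM untreated and 38.6 and 37.8 TPM with auxin (-1.65 ± 0.07, adjusted p = 9.01e-15), so it kept 31.6% of its untreated level. Even so it was 44.2-fold above untreated SUZ12-AID ESC. Sp8 was at 8.96, 8.45 and 7.52 TPM and then 2.58 and 2.84 TPM (-1.45 ± 0.17, adjusted p = 2.29e-07), or 32.6% of the untreated level. The treated NPC level of Sp8, 2.71 ± 0.187 TPM (n = 2), lay beside the treated ESC level of the same line, 2.6 ± 0.333 TPM (n = 3). Zfp703 fell less, from 129, 124 and 120 TPM to 93.0 and 88.7 TPM (-0.45 ± 0.09, adjusted p = 0.000283), and kept 73% of its level.

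Untagged NPC with auxin gave the reference. There limma called 0 of the 7 genes (lowest adjusted p = 0.719) and 0% of all genes. At an unadjusted p under 0.05 there were 0 of the 7 genes and 1180 of all genes, and voom called 0 and 16. Nsg1 was at 120, 125 and 112 TPM untreated and 110, 112 and 106 TPM with auxin (-0.12 ± 0.06), and Sp8 at 7.55, 9.14 and 7.71 TPM and 9.99, 8.8 and 7.77 TPM. The difference between the SUZ12-AID and the untagged change was called for 6 of the 7 genes, beside 18.8% of all genes called higher and 24.7% lower. It was 3.91 ± 0.46 for Pitx1 (adjusted p = 4.68e-07), 3.07 ± 0.68 for Tlx2 (adjusted p = 0.000903) and 0.85 ± 0.21 for Rftn1 (adjusted p = 0.00214). For the genes that fell it was -1.57 ± 0.23 for Sp8 (adjusted p = 8.68e-06), -1.53 ± 0.09 for Nsg1 (adjusted p = 1.12e-11) and -0.43 ± 0.12 for Zfp703 (adjusted p = 0.00827). Susd3 missed the threshold at 0.91 ± 0.42 (adjusted p = 0.0879).

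**Figure D3:**
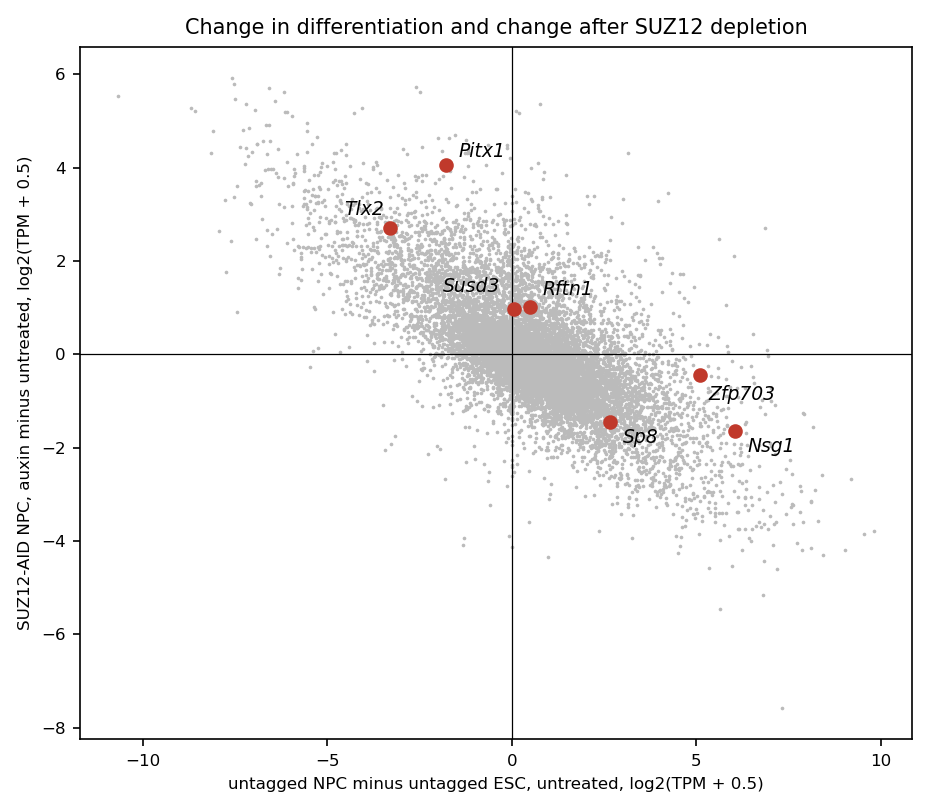
Each grey point is a gene tested in both comparisons, with its log2 difference between untreated untagged NPC and ESC on the x axis and its log2 difference between auxin and untreated SUZ12-AID NPC on the y axis, and the 7 genes are red. Nsg1, Zfp703 and Sp8 lie at the lower right, Tlx2 and Pitx1 at the upper left, and Rftn1 and Susd3 above 0 near the middle.

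The direction in SUZ12-AID NPC was set beside the direction in untagged differentiation, which shares no library with it. The 3 genes with the largest rise in differentiation fell, the 2 that fell in differentiation rose, and Rftn1, which rose a little in differentiation, rose again. The same was common among all genes. Of 8460 genes called higher in untagged NPC than ESC, 57.1% were called lower and 8.26% higher in SUZ12-AID NPC with auxin. Of 4318 genes called lower in differentiation, 59.7% were called higher and 4.82% lower, and of 3691 not called, like Susd3, 17.8% were called higher and 10.7% lower. Among the 2332 genes that rose by at least 2 on the log2 scale in differentiation, as Sp8, Zfp703 and Nsg1 did, 75.7% were called lower and 7.59% higher. Among the 2070 that fell by at least 1, as Tlx2 and Pitx1 did, 77.3% were called higher and 1.35% lower.

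**Figure D4:**
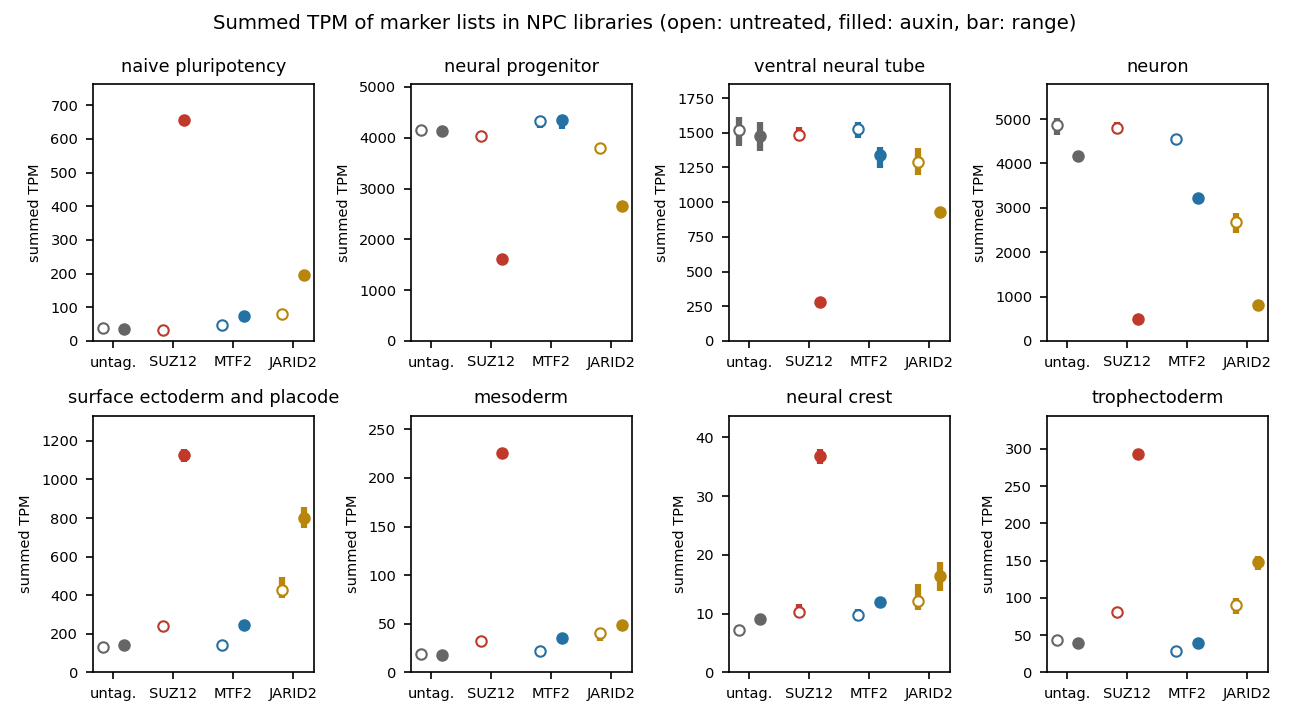
Each panel plots the summed TPM of a list of marker genes in NPC, by line along the x axis, with open points for the mean untreated, filled points for the mean with auxin and bars for the range over libraries. With auxin the SUZ12-AID neuron sum falls from 4674 to 4938 down to 472 to 526, while its naive pluripotency sum reaches 651 to 661.

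Marker genes of other cell types moved in the same NPC libraries, where 23.9% of all genes were called higher and 33.0% lower. With auxin in SUZ12-AID NPC the summed TPM of 9 neuron genes went from 4674 to 4938 untreated to 472 to 526, and 9 of 9 were called lower. That of 7 neural progenitor genes went from 4015 to 4047 to 1607 to 1632 (7 of 7 lower), and that of 6 ventral neural tube genes from 1439 to 1544 to 280 to 282 (6 of 6 lower). These sums fell together with Nsg1, Sp8 and Zfp703. The sum of 8 naive pluripotency genes went from 27.6 to 35.6 up to 651 to 661 (7 of 8 higher). That of 9 surface ectoderm and placode genes went from 229 to 254 up to 1093 to 1157 (7 of 8 tested higher, 1 lower, Eya1). That of 9 mesoderm genes went from 30.5 to 32.9 up to 222 to 229 (5 of 6 tested higher), with Mesp1 at 0 in both treated libraries. Trophectoderm genes went from 78.7 to 85.1 up to 286 to 299 (4 of 5 tested higher). Endoderm genes went from 36.7 to 43.1 up to 55.3 to 57.8 (4 of 5 tested higher, 1 lower, Foxa1), with Cer1 at 0. Neural crest genes went from 9.46 to 11.6 up to 35.5 to 38.1 (5 of 6 higher). In untreated untagged ESC the surface ectoderm and placode sum was 406 to 434 and the trophectoderm sum 125 to 132. The neural crest sum there was 32.7 to 38.3, so these lists are not particular to the cell types they are named for. The mesoderm and endoderm sums in those ESC were low, at 4.08 to 5.77 and 4.48 to 6.03. Genes of peripheral and sensory neurons, a cell class in which Tlx2 and its relatives are known, went from 692 to 723 down to 87.9 to 92.2 (5 of 8 lower, 1 higher). The 1 called higher was Tlx3, a relative of Tlx2, from 2.43 to 8.26 TPM (1.60 ± 0.41, adjusted p = 0.00204). Fewer cells of a type and less RNA per cell cannot be told apart in these bulk libraries, and the part of the cell type mix in the changes of the 7 genes was not tested.

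In MTF2-AID NPC with auxin 3 of the 7 genes were called, beside 5.03% of all genes called higher and 3.11% lower. Pitx1 rose from 0.352, 1.07 and 0.415 TPM to 2.44, 1.85 and 1.39 TPM (1.14 ± 0.30, adjusted p = 0.0229), on 8 against 25 reads in all, a ratio per 1000000 reads of 3.45 with an exact 95% interval of 1.51 to 8.85. Rftn1 rose from 4.63, 6.67 and 4.74 TPM to 7.91, 7.68 and 6.93 TPM (0.47 ± 0.14, adjusted p = 0.0388). Nsg1 fell from 110, 110 and 109 TPM to 94.3, 92.2 and 100 TPM (-0.20 ± 0.06, adjusted p = 0.045). Sp8 was at 9.5, 11.1 and 9.29 TPM and 7.03, 8.67 and 5.53 TPM, without overlap, but missed the threshold (-0.48 ± 0.15, adjusted p = 0.0538). None of the 7 differences from the untagged line was called by limma (lowest adjusted p = 0.184, for Sp8), beside 1.40% of all genes. At an unadjusted p under 0.05 there were 2 of the 7 genes and 2410 of all genes, and voom called 1 and 356. The 3 calls depend on single libraries: 0 genes were called without untreated replicate 1 or 3 or auxin replicate 1, 1 without auxin replicate 2, and 0 with the 2 groups fitted alone. The neuron sum went from 4427 to 4605 down to 3174 to 3276 (6 of 9 lower) and the naive pluripotency sum from 46.4 to 50.8 up to 70.1 to 82.3 (2 of 8 higher), and their part was not tested.

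AID-JARID2 NPC with auxin also had 3 of the 7 genes called, beside 9.28% of all genes higher and 15.7% lower: Nsg1, Zfp703 and Sp8. Nsg1 fell from 58.5, 56.4 and 63.8 TPM to 34.7, 33.4 and 30.2 TPM (-0.85 ± 0.06, adjusted p = 7.98e-10). Zfp703 fell from 142, 140 and 121 TPM to 118, 107 and 104 TPM (-0.29 ± 0.08, adjusted p = 0.0134). Sp8 rose from 6.12, 5.41 and 5.33 TPM to 10.3, 6.98 and 7.96 TPM (0.53 ± 0.15, adjusted p = 0.0133), the opposite of its fall in SUZ12-AID NPC. With 1 library left out, 2 or 3 of these calls were made: Sp8 was lost without auxin replicate 1 (adjusted p = 0.089), and Zfp703 without untreated replicate 1 or 2 or auxin replicate 3 (adjusted p up to 0.0677). Nsg1 was the only 1 of the 7 genes whose change was called beyond that of the untagged line (-0.73 ± 0.08, adjusted p = 4.35e-06, beside 9.04% of all genes), and for Sp8 that difference was 0.41 ± 0.21 (adjusted p = 0.271). Pitx1 was at 1.24, 0.784 and 0.549 TPM and 1.2, 1.53 and 0.67 TPM (0.26 ± 0.30, adjusted p = 0.581). Tlx2 was at 0, 0.364 and 0.34 TPM and 1.6, 0.712 and 0.622 TPM (0.99 ± 0.45, adjusted p = 0.118), on 2 against 9 reads. The neuron sum went from 2430 to 2886 down to 763 to 840 (9 of 9 lower), together with Nsg1. The neural progenitor sum went from 3707 to 3869 down to 2609 to 2683 (5 of 7 lower, 1 higher), and 5 of 6 ventral neural tube genes were lower. The naive pluripotency sum went from 75.5 to 86.4 up to 188 to 208 (5 of 8 higher, 1 lower), and the surface ectoderm and placode sum from 387 to 495 up to 746 to 856 (5 of 8 tested higher, 1 lower). Their part in the changes was not tested.

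The changes in MTF2-AID and AID-JARID2 NPC share no library and were compared directly. Sp8 (-1.01 ± 0.21, adjusted p = 0.00367) and Nsg1 (0.65 ± 0.08, adjusted p = 2.7e-05) differed, beside 9.64% of all genes in either direction. In MTF2-AID NPC, Sp8 was lower in 3 of 3 treated libraries than in any untreated one, and in AID-JARID2 NPC it was higher in 3 of 3. Neither change of Sp8 was called by limma beyond that of the untagged line (adjusted p = 0.184 and 0.271). Susd3 (1.14 ± 0.40, adjusted p = 0.0747), Zfp703 (0.36 ± 0.12, adjusted p = 0.0567), Pitx1 (0.88 ± 0.43, adjusted p = 0.222), Tlx2 (-0.96 ± 0.64, adjusted p = 0.395) and Rftn1 (0.23 ± 0.19, adjusted p = 0.517) missed the threshold, which does not show that these genes changed alike.

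Some of the 7 genes differed between lines before auxin. Untreated AID-JARID2 NPC held 59.5 ± 3.81 TPM of Nsg1 (SD, n = 3) against 119 ± 6.52 TPM in untagged NPC (-0.99 ± 0.06, adjusted p = 1.01e-10). In the same comparison Sp8 was lower (-0.49 ± 0.15, adjusted p = 0.0205), and Pitx1 (0.98 ± 0.30, adjusted p = 0.0223) and Rftn1 (0.50 ± 0.14, adjusted p = 0.0105) were higher, beside 11.8% of all genes higher and 12.0% lower. Without untagged replicate 2, 2 of these 4 genes were called. The rise of Sp8 with auxin in this line thus brought it from below the untagged level to 8.41 ± 1.7 TPM, beside 8.13 ± 0.881 TPM in untreated untagged NPC. Untreated neuron sums differed as well, at 2430 to 2886 in AID-JARID2 NPC and 4634 to 5026 in untagged NPC. Between untreated SUZ12-AID and untagged NPC limma called none of the 7 genes (lowest adjusted p = 0.871), beside 0.814% of all genes. At an unadjusted p under 0.05 there were 0 of the 7 and 1612 of all genes, and voom called 0 and 340. Between untreated MTF2-AID and untagged NPC limma also called none of the 7 (lowest adjusted p = 0.192), beside 8.76% of all genes. There 1 of the 7 and 3810 of all genes were at an unadjusted p under 0.05, and voom called 0 and 1890. In ESC, untreated AID-JARID2 cells had more Tlx2 than untagged cells, 14.1 ± 3.41 against 7.55 ± 2.5 TPM (0.89 ± 0.18, adjusted p = 0.00283), more Zfp703 (0.59 ± 0.15, adjusted p = 0.021) and less Susd3 (-0.94 ± 0.28, adjusted p = 0.0441), beside 3.09% of all genes higher and 3.22% lower. With the 2 groups fitted alone 0 of these 3 ESC genes were called, and without untagged replicate 2 or AID-JARID2 replicate 1 only 1 was. Without auxin MTF2-AID ESC, whose libraries took part in the choice, had 16.9 ± 1.27 TPM of Tlx2 and SUZ12-AID ESC 6.03 ± 0.835 TPM.

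The order of the 8 groups within a stage differed from gene to gene. The ESC order is a description only, since SUZ12-AID and MTF2-AID ESC with auxin chose the genes. In ESC, SUZ12-AID with auxin stood highest for Sp8, Rftn1, Nsg1 and Susd3, each apart from the next group. For Nsg1 the group next in order was untagged ESC with auxin, at 1.5 ± 0.458 TPM, and from there down each group overlapped its neighbour. For Tlx2 MTF2-AID ESC with auxin stood highest, at 28.4 ± 2.71 TPM, apart from the untreated MTF2-AID group, which overlapped untreated AID-JARID2. For Pitx1 MTF2-AID with auxin (2.88 ± 0.522 TPM), SUZ12-AID with auxin (2.36 ± 0.443 TPM) and untreated AID-JARID2 (2.32 ± 0.162 TPM) overlapped in turn, and untreated SUZ12-AID was lowest and apart, at 0.953 ± 0.169 TPM. For Zfp703 AID-JARID2 with auxin stood highest, at 6.37 ± 1.24 TPM, but overlapped SUZ12-AID with auxin. In NPC, SUZ12-AID with auxin was at an end of the order for 6 genes. It was highest and apart for Tlx2, Pitx1 and Rftn1, highest but overlapping MTF2-AID with auxin for Susd3, and lowest and apart for Sp8 and Zfp703. For Nsg1 AID-JARID2 with auxin was lower still, at 32.8 ± 2.33 TPM against 38.2 ± 0.548 TPM, without overlap. The share of all genes with SUZ12-AID with auxin at an end or apart is not given here, so nothing is read from these places.

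The relatives of the 7 genes were followed as a fixed list of 21 genes (Sp, Tlx, Nsg, Susd and other related genes), of which 18 were tested in each stage. With auxin in SUZ12-AID ESC 5.89% of all genes were called higher and 0.940% lower. Of the 18 relatives 3 were called higher and 0 lower, with a median of 0.28 beside 0.09 over all genes. Among them were Susd4 (0.74 ± 0.18, adjusted p = 0.0185) and Sp6 (0.44 ± 0.11, adjusted p = 0.0158). In SUZ12-AID NPC 7 were called higher and 4 lower, with a median of 0.02 beside -0.10 over all genes, of which 23.9% were called higher and 33.0% lower. Sp5, a target of WNT signalling, rose from 0.327 to 19.1 TPM (4.65 ± 0.40, adjusted p = 2.7e-09), Sp6 from 2.19 to 18.5 TPM (2.83 ± 0.23) and Tlx1 from 0.796 to 6.81 TPM (2.51 ± 0.30). Nsg2, the closest relative of Nsg1, fell with it, from 57 to 14 TPM (-1.99 ± 0.08, adjusted p = 3.2e-15), and Sp9, the closest relative of Sp8, fell from 4.93 to 3.23 TPM (-0.55 ± 0.23, adjusted p = 0.0455). With median-of-ratios scaling the counts were 9 higher and 2 lower. In MTF2-AID NPC 2 relatives were called higher, among them Sp6 (1.12), and 1 lower, Caly (-1.28), beside 5.03% and 3.11% of all genes. In AID-JARID2 NPC 3 were called higher, among them Tlx1 (0.84) and Sp6 (0.81), and 2 lower, Susd4 (-0.72) and Zfp503 (-0.66). Over all genes there 9.28% were called higher and 15.7% lower.

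Other developmental genes that PRC2 is known to bind in stem cells were read from a fixed list of 117 transcription factor genes that held none of the 7. In SUZ12-AID ESC 57 were tested. Over all genes there 5.89% were called higher and 0.940% lower. Of the 57, 10 were called higher and 0 lower (7 and 0 with median-of-ratios scaling), with a median of 0.42 beside 0.09 over all genes. Among them were Gsc (0.83 ± 0.15, adjusted p = 0.00291), Cdx1 (0.29 ± 0.06, adjusted p = 0.00332), Msx2 (0.95 ± 0.18, adjusted p = 0.00361) and Gata2 (0.63 ± 0.14, adjusted p = 0.0099). In MTF2-AID ESC 0 of 57 were called higher and 1 lower, beside 0.629% and 0.457% of all genes. In AID-JARID2 ESC 0 of 57 were called higher and 1 lower, beside 0.113% and 0.185% of all genes. In SUZ12-AID NPC 90 were tested, with 44 higher and 32 lower, beside 23.9% and 33.0% of all genes. The median was 0.75 beside -0.10 over all genes. That list too held genes of both directions. Among those with the smallest p were Nkx6-2 (-4.25 ± 0.07, adjusted p = 1.65e-20), Isl1 (-3.59 ± 0.07, adjusted p = 1.07e-19) and Nkx2-2 (-3.60 ± 0.09, adjusted p = 3.78e-18), regulators of motor neurons and ventral progenitors, which fell, like Sp8. In MTF2-AID NPC 19 were called higher and 21 lower, beside 5.03% and 3.11% of all genes. In AID-JARID2 NPC 11 were called higher and 23 lower, beside 9.28% and 15.7% of all genes.

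Sp8 and Pitx1 are known from the limb bud, so a fixed list of 21 other limb and appendage patterning genes was read beside them. In SUZ12-AID NPC 18 were tested and 10 were called higher and 6 lower, with a median of 0.75, beside 23.9% and 33.0% of all genes and a median of -0.10. In MTF2-AID NPC 6 were called higher and 4 lower, beside 5.03% and 3.11% of all genes. In AID-JARID2 NPC 5 were called higher and 8 lower, beside 9.28% and 15.7% of all genes. Hand2, a regulator of limb and heart mesoderm, rose from 1.4 to 31.7 TPM (4.09 ± 0.21, adjusted p = 4.54e-13). Tbx4, a hindlimb gene named after its values were seen, rose with Pitx1 from 0.165 to 8.59 TPM (3.79 ± 0.35, adjusted p = 6.31e-09). Isl1 (-3.59 ± 0.07, adjusted p = 1.07e-19), Shh (-2.46 ± 0.09, adjusted p = 6.8e-16) and Wnt7a (-3.19 ± 0.12, adjusted p = 1.46e-15), which are also genes of the ventral neural tube or of neurons, fell with Sp8. In SUZ12-AID ESC 14 were tested, of which Msx2 rose (0.95 ± 0.18, adjusted p = 0.00361) and Bmp4 fell (-0.91 ± 0.21, adjusted p = 0.0129). Over all genes there 5.89% were called higher and 0.940% lower. Among 11 tested genes of PRC2 subunits themselves, 5 were called higher and 3 lower in SUZ12-AID NPC (6 and 2 with median-of-ratios scaling), with Phf19 at 2.40 ± 0.18 (adjusted p = 1.93e-10) and Suz12 RNA at 1.06 ± 0.12 (adjusted p = 1.01e-07).

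The nearest 2 protein-coding genes on each side of each gene, 28 in all, were read to see whether the changes ran along the chromosome. In SUZ12-AID ESC 20 were tested and 2 were called higher, beside 5.89% of all genes. These were Dazl, a germ cell gene that starts 103 kb from Rftn1 (0.64 ± 0.09, adjusted p = 0.000168), and Erlin2, 45.9 kb from Zfp703 (0.25 ± 0.07, adjusted p = 0.0246). The neighbours of Tlx2, Pcgf1 at 7.58 kb, Dqx1, Aup1 and Lbx2, were called in neither SUZ12-AID ESC nor SUZ12-AID NPC, and nor were the tested neighbours of Pitx1. In SUZ12-AID NPC 22 were tested, with 4 higher and 5 lower, beside the 23.9% and 33.0% of all genes. Dazl rose with Rftn1, from 0.356 to 16.7 TPM (4.33 ± 0.28, adjusted p = 2.89e-11), and Ninj1 (0.82 ± 0.12, adjusted p = 8.15e-06) and Card19 (0.44 ± 0.16, adjusted p = 0.0258) rose with Susd3. On the other side of Susd3, Fgd3 (-1.95 ± 0.13, adjusted p = 5.75e-11) and Bicd2 (-1.06 ± 0.08, adjusted p = 1.99e-10) fell. Itgb8, an integrin gene beyond Abcb5 on the side of higher coordinates of Sp8, fell from 54.5 to 4.95 TPM (-3.33 ± 0.10, adjusted p = 3.42e-17), while Lyar, 60.6 kb from Nsg1, rose (0.61 ± 0.08, adjusted p = 1.86e-06) as Nsg1 fell. In AID-JARID2 NPC 2 were higher and 5 lower, beside 9.28% and 15.7% of all genes. limma called 0 of 20 in MTF2-AID ESC (3 at an unadjusted p under 0.05, beside 1697 of all genes) and 0 of 22 in MTF2-AID NPC (2, beside 3749). Over all genes limma called 1.09% and 8.14% there, in either direction.

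Overlapping gene models may bear on some of the counts. Stx18, on the opposite strand, shares 574 bases with Nsg1, and was at 18.8 TPM untreated and 16.8 TPM with auxin in SUZ12-AID NPC (-0.17 ± 0.10, adjusted p = 0.176) while Nsg1 fell 3.17-fold. Antisense models overlap Pitx1 (Gm47071, over 9943 bases) and Zfp703 (Gm45371, over 2611 bases), a same-strand model overlaps Pitx1 (Gm28760, over 736 bases), and AC132235.2 lies within Rftn1 on the opposite strand (over 3441 bases), none of them among the measured symbols. These overlaps are of whole gene spans, introns included, and overlap of exons was not measured. The library kit marks strand, but whether the counting used it is not given in the sources used here. Whether reads of these models entered the counts of Pitx1, Zfp703 and Rftn1 can therefore not be told.

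Among the 7 genes themselves, the group means over the 16 groups, with the mean of each stage removed, were most alike for Tlx2 and Pitx1 (Pearson r = 0.823) and for Sp8 and Nsg1 (r = 0.681), and most opposed for Sp8 and Pitx1 (r = -0.619). These are descriptions over 16 group means that share lines and cultures, and SUZ12-AID NPC with auxin is a far point for most of the genes. The SUZ12-AID and MTF2-AID ESC groups are among the 16 and chose the genes, so likeness among the 7 is partly built in. The same measure was taken over 17760 genes, and unnamed gene models, such as Gm and Rik symbols, were then left out of the ranking. Among the rest, the pattern of Pitx1 was most like that of Hoxd9 (r = 0.977; 0.0557 to 10.4 TPM in SUZ12-AID NPC), Zic1 (r = 0.968; 0.945 to 19.7 TPM) and Slc4a11 (r = 0.965). That of Nsg1 was most like Tbpl1 (r = 0.965; 39.4 to 25.5 TPM), Gab2 (r = 0.955) and Tspan5 (r = 0.952), and that of Tlx2 like Trpv4 (r = 0.923), Orai1 (r = 0.917) and Cdc5l (r = 0.909). For Sp8 these genes were Slmo1 (r = 0.913), Fam221b (r = 0.901) and Sox4 (r = 0.89; 341 to 148 TPM), and for Zfp703 Anks6 (r = 0.909), Trmt2b (r = 0.894) and Antxr1 (r = 0.881). Rftn1 was most like Rab32 (r = 0.89), Lyn (r = 0.88) and St3gal5 (r = 0.875), and Susd3 like Fam107b (r = 0.88), Svil (r = 0.874) and Papolg (r = 0.85). With the group means left as they are, Slmo1, Hoxd9, Anks6 and Tbpl1 were again first for Sp8, Pitx1, Zfp703 and Nsg1.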

How the data were processed

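The 47 polyA libraries were read from 1 deposited table of TPM (transcripts per 1000000), which adds up to that total in each library. The authors aligned reads to mm10 with STAR 2.6.1d, per the submitters' processing notes; which counter and gene models they used is not stated in the labels. TPM steps gave whole reads for 100% of 27296 genes above 0 (tolerance 0.001). Groups followed the genotype, stage and treatment labels. Genes with at least 1 TPM in 2 libraries of a stage were fitted as log2(TPM + 0.5) with limma 3.58.1 in R 4.3.3 (trend and robust eBayes), fitting the 8 groups of each stage together (16 for the stage comparison) and a Benjamini-Hochberg threshold of 0.05. Python 3.11.15 was used for summaries.

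The 7 genes and all lists were chosen with earlier results of these data known. The contrasts that chose the genes, their differences from the untagged line, and untreated SUZ12-AID and MTF2-AID ESC carry no test of the 7 genes. Threshold counts given for them are a description. Named besides the 7 were their relatives and neighbours, the 3 most alike genes with unnamed gene models left out, and up to 4 called genes of a list with the smallest p. Alternatives were pseudocounts 0.1 and 1, no filter, median-of-ratios scaling, voom on recovered reads, the compared groups alone, a replicate block and leaving out each library. Some genes that this rule names are not reported here.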

Additional observations from a re-analysis of the deposited data

Results flagged for a closer look

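In NPC the effect of auxin differed from that in the untagged line, by the test of the difference itself, for 6 genes in SUZ12-AID cells. These differences in log2 change were 3.91 for Pitx1, 3.07 for Tlx2, 0.85 for Rftn1, -1.57 for Sp8, -1.53 for Nsg1 and -0.43 for Zfp703. In AID-JARID2 NPC the same test singled out Nsg1, at -0.73. The effects in MTF2-AID and AID-JARID2 NPC differed from each other for Sp8, at -1.01, and for Nsg1, at 0.65. The untagged libraries are shared by the first 7 of these differences, and neuron marker sums moved in the same libraries.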

How the results depend on the processing

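Of 1385 recomputed values for single genes, 1296 kept their direction and side of the threshold or, where untested, stayed within a limit set from the SE. That limit was 1 SD for 2 compared groups and wider for differences beyond the untagged line. Of the rest, 46 lost the threshold, 14 gained it, 8 moved by more than the limit and 21 changed sign. The sign changes were all of genes not called. Tlx2 with auxin in MTF2-AID NPC was -0.01 with pseudocount 1 and -0.25 to 0.61 with 1 library left out. Pitx1 in AID-JARID2 NPC beyond untagged was -0.05 with voom and -0.16 to 0.35 with 1 library left out. In untreated AID-JARID2 against untagged NPC, Tlx2 was -0.47 to 0.12 and Susd3 -0.26 to 0.18 with 1 library left out, and Susd3 was 0.00 with pseudocount 1 and 0.01 with median-of-ratios scaling and with voom. Susd3 in untagged differentiation was -0.18 with median-of-ratios scaling, -0.13 with voom and -0.15 to 0.24 with 1 library left out. Of the 7 genes, with the compared groups alone 1 was called in MTF2-AID ESC (3 in all groups together), 0 in untreated AID-JARID2 ESC (3) and 0 in MTF2-AID NPC (3, and 1 with no filter). With 1 library left out, the counts were 1 to 3 in untreated AID-JARID2 ESC, 0 to 2 in MTF2-AID NPC and 2 to 4 in untreated AID-JARID2 NPC (4). Voom called 1 in MTF2-AID NPC beyond untagged (0). The compared groups alone leave fewer samples to estimate the spread; the cause of the other moves was not tested. Same-numbered libraries correlated at -0.0326 to 0.0853 in their deviations, all under 0.1, so the numbers were not taken as pairs; with the replicate block 7 genes were called in SUZ12-AID NPC, 4 in MTF2-AID NPC and 3 in AID-JARID2 NPC, and 7 in SUZ12-AID NPC also by library number, an alternative chosen after seeing the data, as was median-of-ratios scaling of the list counts. Counts over all genes ranged, over the alternatives, from 351 to 2189 in SUZ12-AID ESC (1031), 33 to 170 in MTF2-AID ESC (164), 18 to 57 in untagged ESC (32), 8 to 52 in AID-JARID2 ESC (45), 508 to 1153 in untreated AID-JARID2 ESC (953), 731 to 1698 in MTF2-AID NPC (1340), 126 to 356 for MTF2-AID NPC beyond untagged (230), 81 to 340 in untreated SUZ12-AID NPC (134), 760 to 1976 in untreated MTF2-AID NPC (1443) and 1023 to 1940 between MTF2-AID and AID-JARID2 NPC (1588). Depth limits Susd3 in both stages, Tlx2 in NPC, Nsg1 in ESC and Pitx1 outside SUZ12-AID NPC with auxin, which rest on at most 22 reads a library.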
